A study of Mus musculus with 21 samples.

Results

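The 10 genes studied here, which human genetics links to the risk of Alzheimer's disease through cell signaling and endocytosis, were followed across forebrain RNA of tau transgenic and parental mice carrying human APOE. They were chosen by name: Inpp5d, Plcg2, Abi3 and Spi1, which in the brain are known from microglia, and Bin1, Picalm, Cd2ap, Ptk2b, Rin3 and Mef2c, which are expressed more broadly. All 10 symbols were found among the 55401 genes of the count table, and all 10 passed the filter on low counts in every comparison.

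The 21 mice formed 6 groups. The parental groups E2H, E3H and E4H held 3 mice each and were homozygous for a targeted replacement of mouse Apoe, with human APOE2, APOE3 or APOE4 in its place. In PS/E2H, PS/E3H and PS/E4H, with 4 mice each, the same APOE genotypes were joined to 1 copy of the PS19 transgene, human P301S mutant tau under the mouse prion promoter. Parental mice were 9 to 10 months old, whereas PS19 mice were collected at hindlimb paralysis, so tau, paralysis and age cannot be told apart. The PS19 line was kept on a B6/C3H background and the APOE lines on C57BL6, so PS19 groups may also carry C3H background that the parental lines lack. Most mice were male. Females were present in E4H, PS/E2H and PS/E4H, the labels do not say which mice these were, and sex was not a term in any fit. Library totals lay between 59265459 and 75932183 counts. Of 27 pairs of mice within a group, 0 were identical, and each mouse correlated with the others of its group at a median of 0.957 to 0.971. Across all mice the median was similar, at 0.955 to 0.963.

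Microglia sense lipids, debris and protein aggregates through receptors that signal by immunoreceptor motifs. Phospholipase C gamma 2, encoded by Plcg2, passes this signal on by cleaving a membrane phosphoinositide, SHIP1, encoded by Inpp5d, restrains it by removing a phosphate from another, ABI3 belongs to the machinery that shapes actin, and PU.1, encoded by Spi1, is the transcription factor on which the myeloid lineage depends. The endocytic risk genes act at membranes of many cell types: BIN1 curves membranes, PICALM assembles clathrin coats, CD2AP ties receptors to actin and RIN3 activates the early endosomal GTPase Rab5. PTK2B is a calcium-responsive tyrosine kinase of neurons and other cells, and MEF2C is a transcription factor of neurons that microglia also use.

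Promoter sequence was read for the members because 2 of them encode transcription factors with known binding letters. RefSeq windows of build GRCm38.p6 matched 6 of the 10 members, with 9 windows in all. Abi3, Spi1, Bin1 and Ptk2b had no window, so among the microglial members only Inpp5d and Plcg2 were searched. The 250 bases before each start were searched on both strands for the PU.1 letters GAGGAAGT and the MEF2 letters CTAAAAATA. The windows of Inpp5d and Plcg2, called higher in PS19 mice, and of Picalm, not called, are shown 5′ to 3′, with the PU.1 match in capitals. They lie at chr1:87620062-87620311, chr8:117498025-117498274 and chr7:90129963-90130212, all on the plus strand and directly upstream of the gene's RefSeq start.
Inpp5d: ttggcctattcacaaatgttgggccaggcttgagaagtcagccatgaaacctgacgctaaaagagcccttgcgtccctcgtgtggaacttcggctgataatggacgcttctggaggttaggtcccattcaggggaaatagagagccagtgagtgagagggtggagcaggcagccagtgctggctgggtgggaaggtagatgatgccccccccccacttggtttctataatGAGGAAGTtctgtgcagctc
Plcg2: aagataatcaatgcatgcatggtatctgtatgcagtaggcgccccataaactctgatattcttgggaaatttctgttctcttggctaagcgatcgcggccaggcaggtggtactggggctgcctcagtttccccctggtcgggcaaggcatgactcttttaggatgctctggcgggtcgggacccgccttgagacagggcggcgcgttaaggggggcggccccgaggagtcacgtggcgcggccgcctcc
Picalm: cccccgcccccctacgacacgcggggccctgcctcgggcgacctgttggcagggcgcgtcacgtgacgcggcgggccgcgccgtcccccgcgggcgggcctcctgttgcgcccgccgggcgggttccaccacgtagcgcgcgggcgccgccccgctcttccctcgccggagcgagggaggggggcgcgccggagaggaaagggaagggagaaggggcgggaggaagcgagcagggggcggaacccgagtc
The PU.1 letters stood once in the Inpp5d window, on the gene's own strand, with their first base 20 bases before the start. They were in 2.44% of the 32851 windows of the same length, and none of the other 8 windows of the members held them. None of the 9 windows held the MEF2 letters, which were in 0.469% of all windows. These are matches of letters in 1 window per start and say nothing about binding.

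On the FPKM scale, fragments scaled to transcript length and library size, the 10 genes spanned a wide range. The mean over 21 mice was 54.6 FPKM for Bin1, 52.5 for Ptk2b, 22.6 for Mef2c and 9.37 for Picalm. The 4 microglial members were lower, at 3.16 FPKM for Abi3, 2.38 for Inpp5d, 1.71 for Spi1 and 1.55 for Plcg2. Cd2ap at 1.51 FPKM and Rin3 at 0.448 FPKM were lower still, so the members named as broadly expressed were not all abundant. The lowest count of any member in any library was 121, for Spi1. Sequence shared with other genes on the transcript strand was limited. Of the 50-base windows of their annotated transcripts, 0.546% for Inpp5d and 2.71% for Cd2ap also occur in another gene, and 0% for the other 8 members. Abi3 (chr11:95830074-95842476, minus strand, GRCm38) overlaps Gngt2, Phospho1 and Zfp652 on the opposite strand. Plcg2 overlaps Gm27361 and Bin1 overlaps A830052D11Rik, also on the opposite strand. Picalm overlaps Gm45220, Gm45221, Gm45222 and Gm45223 on its own strand. The libraries were strand-specific, but whether counting used the strand is not given in the sources used here. Values of Abi3, Plcg2 and Bin1 are therefore less certain.

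**Figure D1:**
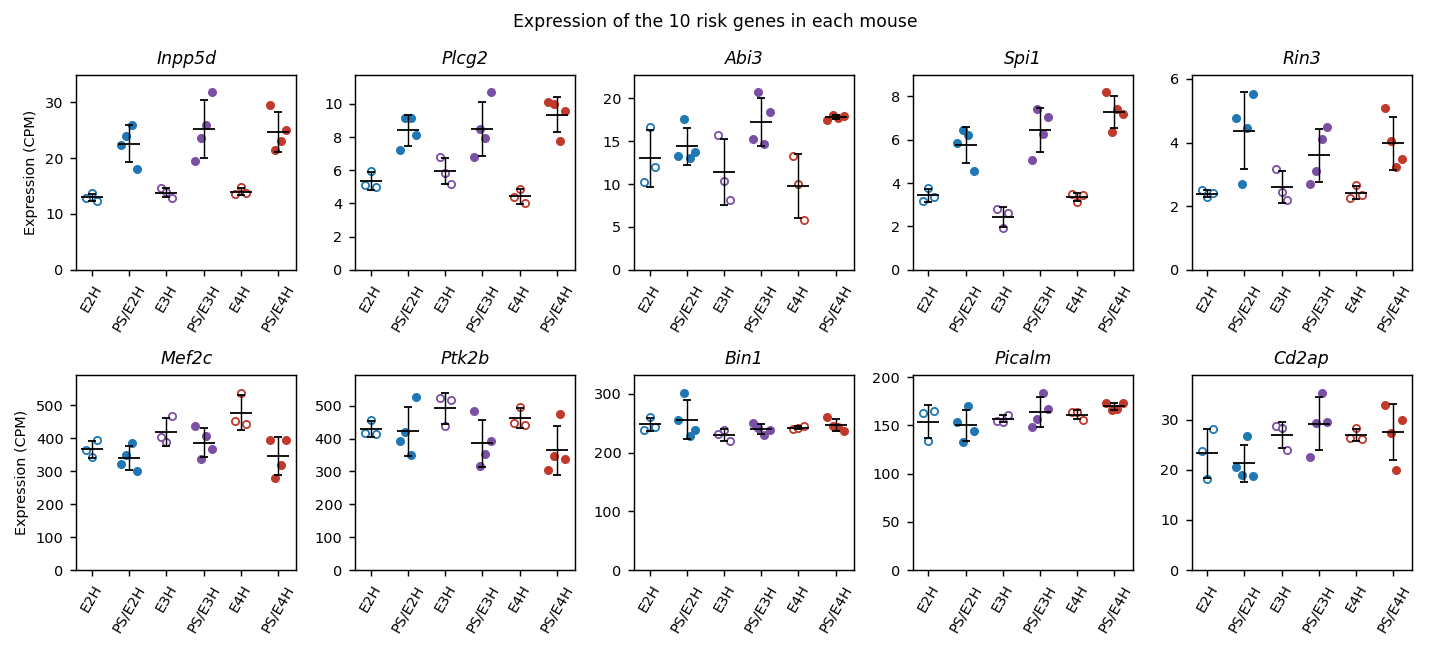
Counts scaled to library size (CPM) of the 10 genes in each mouse (y axis, from 0) by group (x axis). Open circles are parental mice, filled circles PS19 mice, and bars give the group mean and SD (n = 3 parental or 4 PS19 mice). Inpp5d and Spi1 in all 12 PS19 mice lie above all 9 parental mice, as do 1.40% of all genes tested. The other genes, Bin1, Picalm and Cd2ap among them, overlap between the 12 PS19 and the 9 parental mice.

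The first question was how the members differ between paralyzed PS19 mice and their parental line within each APOE genotype. In the 3 lines pooled, all 4 microglial members rose, as did Rin3, and Mef2c fell. Spi1 rose 2.12-fold, Inpp5d 1.78-fold, Plcg2 1.68-fold, Rin3 1.61-fold and Abi3 1.45-fold, and Mef2c was at 0.853 of the parental level. Among all 22863 genes tested, 11.4% were called higher and 9.63% lower at an adjusted p under 0.05 (edgeR quasi-likelihood test), against 5 and 1 of the 10 members. Calls that also needed a fold of at least 2 took in 2.24% of genes as higher and 1 member, Spi1. The median log2 fold change was 0.79 for the microglial members, 0.02 for the others and -0.01 for all genes tested. In bulk tissue, a change in the number of cells of a type and a change in RNA per cell cannot be told apart, for rises as for falls.

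**Figure D2:**
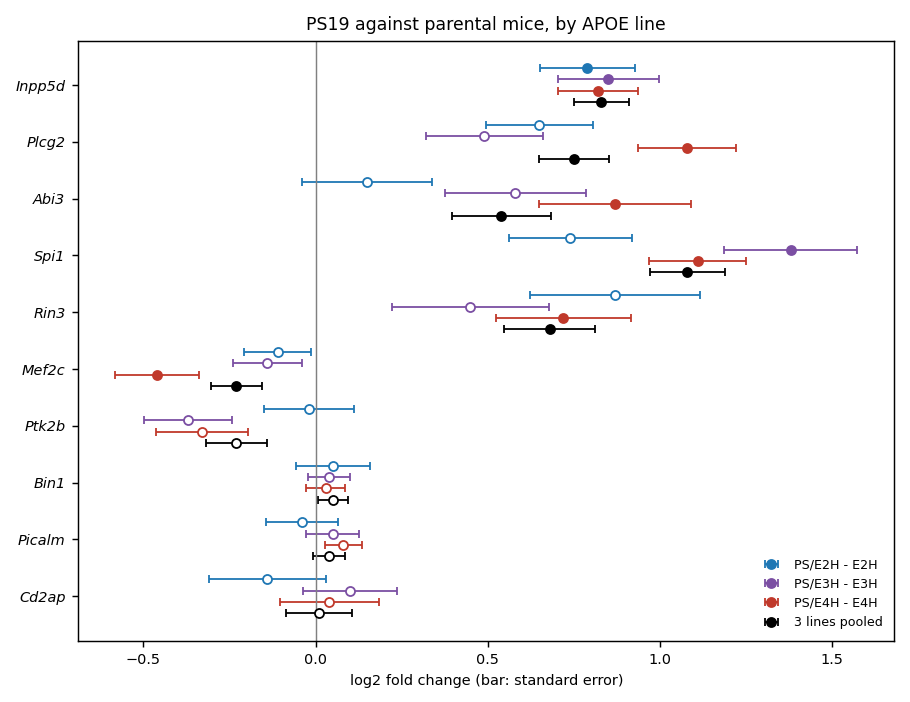
Log2 fold change of each gene (x axis) in PS19 against parental mice for each APOE line and pooled, with its standard error as the bar. Filled points are called at an adjusted p under 0.05. Inpp5d lies between 0.79 and 0.85 in the 3 lines, and Bin1 between 0.03 and 0.05.

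Spi1 encodes PU.1 (ENSMUSG00000002111, chr2:91082390-91115756). Its level in CPM, which scales counts to library size, was 3.19, 3.78 and 3.35 in E2H mice and 5.84, 6.44, 6.22 and 4.54 in PS/E2H mice. In the APOE3 line it was 2.79, 1.93 and 2.63 in E3H and 5.07, 7.41, 6.28 and 7.05 in PS/E3H. E4H mice had 3.49, 3.15 and 3.47, and PS/E4H mice 8.19, 6.35, 7.41 and 7.19. Every PS19 mouse was thus above every parental mouse, also across lines. This held for 2 of the 10 members, Spi1 and Inpp5d, and for 1.40% of the 22863 genes tested. The log2 fold change was 1.38 ± 0.194 (SE) in PS/E3H against E3H (edgeR adjusted p = 0.00569) and 1.11 ± 0.141 in PS/E4H against E4H (edgeR adjusted p = 0.00111). In the APOE2 line it was 0.74 ± 0.179 and did not pass (edgeR adjusted p = 0.113, 95% interval 0.34 to 1.14), although the mice did not overlap. Pooled over the lines it was 1.08 ± 0.109 (edgeR adjusted p = 2.64e-07).

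Inpp5d encodes SHIP1 (ENSMUSG00000026288, chr1:87620312-87720507), whose promoter window held the PU.1 letters. It was at 12.9, 13.7 and 12.4 CPM in E2H and at 22.4, 24.0, 25.9 and 18.0 CPM in PS/E2H. The APOE3 line gave 14.6, 14.0 and 12.9 CPM in E3H and 19.4, 23.6, 26.0 and 31.8 CPM in PS/E3H. E4H mice had 13.5, 14.8 and 13.7 CPM, against 29.6, 21.4, 23.0 and 25.0 CPM in PS/E4H. The parental mice of all lines lay within 12.4 to 14.8 CPM and the PS19 mice within 18.0 to 31.8 CPM. Inpp5d was the one member called in each line, with log2 fold changes of 0.79 ± 0.138 (SE) in the APOE2 line (edgeR adjusted p = 0.0376), 0.85 ± 0.147 in the APOE3 line (edgeR adjusted p = 0.0133) and 0.82 ± 0.116 in the APOE4 line (edgeR adjusted p = 0.00191). Without single mice the call stood in 1 of 7 fits in the APOE2 line, with adjusted p up to 0.205, in 4 of 7 in the APOE3 line, where it was lost without any 1 of the E3H mice, and in 7 of 7 in the APOE4 line. The pooled value was 0.83 ± 0.0793 (edgeR adjusted p = 1.41e-07).

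Plcg2 (ENSMUSG00000034330, chr8:117498291-117635142), the phospholipase downstream of microglial receptors, was at 5.09, 5.97 and 4.97 CPM in E2H and at 7.23, 9.13, 9.16 and 8.13 CPM in PS/E2H. E3H mice had 6.79, 5.86 and 5.20 CPM and PS/E3H mice 6.77, 8.48, 7.95 and 10.7 CPM. In the APOE4 line it was 4.36, 4.89 and 4.03 CPM in E4H and 10.1, 10, 7.76 and 9.60 CPM in PS/E4H. The groups were apart in the APOE2 and APOE4 lines and met at 6.77 and 6.79 CPM in the APOE3 line. It rose in PS/E4H by 1.08 ± 0.143 on the log2 scale (SE, edgeR adjusted p = 0.00143), past the fold of 2. The differences of 0.65 ± 0.155 in the APOE2 line (edgeR adjusted p = 0.107) and 0.49 ± 0.170 in the APOE3 line (edgeR adjusted p = 0.123) did not pass, though the second did without mouse 1 of PS/E3H (adjusted p = 0.0383). Pooled, Plcg2 rose by 0.75 ± 0.102 (edgeR adjusted p = 1.35e-05).

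Abi3 (ENSMUSG00000018381), of the actin-regulating ABI family, spread widely among parental mice. Its level was 10.2, 16.7 and 12 CPM in E2H and 13.3, 17.6, 13 and 13.7 CPM in PS/E2H. E3H mice had 15.7, 10.4 and 8.09 CPM, against 15.3, 20.7, 14.7 and 18.4 CPM in PS/E3H. E4H mice spread over 13.3, 10 and 5.86 CPM, while PS/E4H mice sat at 17.5, 18.1, 17.7 and 17.9 CPM. The groups overlapped in the APOE2 and APOE3 lines and were apart in the APOE4 line. Abi3 rose by 0.87 ± 0.221 on the log2 scale in PS/E4H (SE, edgeR adjusted p = 0.0255), a call lost without mouse 2 of E4H (adjusted p = 0.0913) or mouse 2 of PS/E4H (adjusted p = 0.0539). It differed by 0.58 ± 0.205 in the APOE3 line (edgeR adjusted p = 0.131) and by 0.15 ± 0.188 in the APOE2 line (edgeR adjusted p = 0.853), neither past the threshold. The pooled rise was 0.54 ± 0.145 (edgeR adjusted p = 0.00987).

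Rin3 (ENSMUSG00000044456, chr12:102283048-102390855), the Rab5 exchange factor, was the member of the broadly expressed set that rose. It was at 2.50, 2.28 and 2.40 CPM in E2H and at 4.78, 2.69, 4.46 and 5.54 CPM in PS/E2H. E3H mice had 3.17, 2.46 and 2.18 CPM and PS/E3H mice 2.70, 3.11, 4.11 and 4.48 CPM. E4H mice had 2.25, 2.65 and 2.36 CPM, and PS/E4H mice 5.10, 4.06, 3.24 and 3.48 CPM. PS19 mice were above all their parental mice in the APOE2 and APOE4 lines and overlapped them in the APOE3 line. The log2 fold change was 0.72 ± 0.196 (SE) in the APOE4 line (edgeR adjusted p = 0.0344), a call that stood in 2 of 7 fits without single mice and was lost without any 1 of the E4H mice or without mouse 1 or 2 of PS/E4H, with adjusted p up to 0.123. It was 0.87 ± 0.246 in the APOE2 line (edgeR adjusted p = 0.195) and 0.45 ± 0.228 in the APOE3 line (edgeR adjusted p = 0.289). Pooled, it was 0.68 ± 0.132 (edgeR adjusted p = 6.37e-04).

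Mef2c (ENSMUSG00000005583, chr13:83504034-83667080), the transcription factor shared by neurons and microglia, went the other way. E2H mice had 366, 342 and 394 CPM and PS/E2H mice 323, 350, 386 and 302 CPM. In the APOE3 line it was 403, 389 and 469 CPM in E3H and 438, 336, 406 and 367 CPM in PS/E3H. E4H mice stood at 453, 539 and 443 CPM and PS/E4H mice at 394, 279, 319 and 396 CPM. Only in the APOE4 line were all PS19 mice below all parental mice, as they were for 14.5% of the 20844 genes tested there. There Mef2c fell by 0.46 on the log2 scale (SE 0.122, edgeR adjusted p = 0.0302), but the call stood in 3 of 7 fits without single mice, being lost without mouse 1 or 2 of E4H or mouse 2 or 3 of PS/E4H, with adjusted p up to 0.152. In the other lines the log2 fold change was -0.11 (edgeR adjusted p = 0.777) and -0.14 (edgeR adjusted p = 0.492). The pooled value was -0.23 ± 0.0733 (edgeR adjusted p = 0.0277), and it did not pass without mouse 3 of E3H (adjusted p = 0.0579) or mouse 2 of E4H (adjusted p = 0.0733).

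Ptk2b (ENSMUSG00000059456, chr14:66153257-66281052) encodes the kinase PYK2. Its level was 418, 456 and 413 CPM in E2H and 394, 420, 351 and 525 CPM in PS/E2H. E3H mice had 523, 437 and 516 CPM and PS/E3H mice 483, 317, 352 and 394 CPM. E4H mice had 447, 497 and 440 CPM, against 304, 347, 474 and 337 CPM in PS/E4H. In the APOE2 line 2 PS19 mice, and in the other lines 1, reached into the parental range or above it. The log2 fold change of -0.37 ± 0.128 (SE) in the APOE3 line, of -0.33 in the APOE4 line (edgeR adjusted p = 0.123) and of -0.02 in the APOE2 line (edgeR adjusted p = 0.978) did not pass, nor did the pooled -0.23 ± 0.0884 (edgeR adjusted p = 0.0632). The pooled value passed without mouse 4 of PS/E2H (adjusted p = 0.0138), mouse 1 of PS/E3H (adjusted p = 0.0320) or mouse 3 of PS/E4H (adjusted p = 0.0231), the highest mouse of each group. Leaving out the last 2 of these mice also brought a call within the APOE3 line (adjusted p = 0.00636) and the APOE4 line (adjusted p = 0.00392).

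The 3 remaining genes of endocytosis were not called in any line. Bin1 (ENSMUSG00000024381, chr18:32377230-32435737), the membrane-curving amphiphysin relative, ranged from 220 to 260 CPM in the 9 parental mice and from 228 to 302 CPM in the 12 PS19 mice. Its pooled log2 fold change was 0.05, with a 95% interval of -0.04 to 0.14. Picalm (ENSMUSG00000039361, chr7:90130213-90213465), the clathrin assembly protein, ranged from 134 to 165 CPM and from 133 to 184 CPM, with a pooled value of 0.04 (95% interval -0.06 to 0.13). Cd2ap (ENSMUSG00000061665, chr17:42792951-42876665), the actin adaptor, ranged from 18.2 to 28.7 CPM and from 18.8 to 35.4 CPM, with a pooled value of 0.01 (95% interval -0.19 to 0.20). For Bin1 and Picalm these intervals leave out changes beyond 0.14 on the log2 scale, while that of Cd2ap is wider.

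By line, the count of members called grew with the count of all genes called. In PS/E2H against E2H, 1 of 10 members (Inpp5d) was higher, where 0.669% of 20617 genes were, and none passed the fold of 2, where 0.451% of genes did. In PS/E3H against E3H, 2 members (Inpp5d and Spi1) were higher, beside 3.35% of genes, and 1 (Spi1) also passed the fold of 2, beside 1.20%. In PS/E4H against E4H, 5 members were higher, beside 8.62% of genes, 2 (Plcg2 and Spi1) passed the fold of 2, beside 2.40%, and 1 (Mef2c) was lower, beside 6.98%. The median log2 fold change of the 4 microglial members was 0.70, 0.72 and 0.98 in the APOE2, APOE3 and APOE4 lines, and that of the other 6 was -0.03, 0.05 and 0.03. All PS19 mice were above all parental mice of the line for 4, 2 and 6 members, where 6.47%, 10.9% and 14.2% of genes were. The last 6 include Picalm, whose log2 fold change of 0.08 did not pass (edgeR adjusted p = 0.363).

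Whether the size of these differences depends on APOE was tested by an interaction. None of the 10 members was called in any of the 3 pairs of lines, and 0% of genes were called by edgeR in each, with 847, 1265 and 2223 genes at an unadjusted p under 0.05 for APOE4 against APOE3, APOE2 against APOE3 and APOE4 against APOE2. DESeq2 called 11, 8 and 118 genes and limma 0, 0 and 2, and neither called a member. Plcg2 had the largest difference between the APOE4 and APOE3 lines, with a log2 difference of 0.59 ± 0.225 (SE, 95% interval 0.11 to 1.07, edgeR adjusted p at its ceiling of 1). Spi1 differed by -0.63 ± 0.258 between the APOE2 and APOE3 lines (edgeR adjusted p = 0.847), and Abi3 by 0.72 ± 0.313 between the APOE4 and APOE2 lines (edgeR adjusted p = 0.464). For Inpp5d the 3 differences were -0.03, -0.05 and 0.03, with 95% intervals from -0.44 to 0.39, -0.50 to 0.39 and -0.35 to 0.41. The larger counts of calls in the APOE4 line are therefore not shown to be a larger response of these genes.

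The second question was how the members differ between APOE genotypes, in comparisons that share their groups pairwise. In the parental mice no member was called by edgeR in E2H against E3H, where 0.178% of genes were, in E4H against E3H (0.162% of genes) or in E4H against E2H (0.216% of genes). At an unadjusted p under 0.05 there were 1, 2 and 1 members, beside 2933 of 20797, 1397 of 20958 and 2570 of 20804 genes. Mef2c was at 443 to 539 CPM in E4H and 342 to 394 CPM in E2H, a log2 difference of 0.38 ± 0.0963 (SE, edgeR adjusted p = 0.341) that DESeq2 called (DESeq2 adjusted p = 0.0335). Spi1 was lowest in E3H, by 0.49 ± 0.205 against E2H (edgeR adjusted p = 0.333) and by 0.46 ± 0.187 against E4H (edgeR adjusted p = 0.689). Plcg2 was lowest in E4H, with -0.43 ± 0.155 against E3H (edgeR adjusted p = 0.610). None of these passed in the edgeR fit.

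Among PS19 mice, no member was called by edgeR in PS/E2H against PS/E3H (0.113% of genes), PS/E4H against PS/E3H (0.0197% of genes) or PS/E4H against PS/E2H (0.119% of genes), with 1, 0 and 4 members at an unadjusted p under 0.05, beside 2383 of 20324, 1324 of 20332 and 2491 of 20202 genes. DESeq2 and limma called none of them either. The 4 in the last comparison were Cd2ap at 0.36 ± 0.157 (SE, edgeR adjusted p = 0.389), Spi1 at 0.33 ± 0.148 (edgeR adjusted p = 0.401), Abi3 at 0.30 ± 0.116 (edgeR adjusted p = 0.367) and Picalm at 0.17 ± 0.0759 (edgeR adjusted p = 0.398). The difference of Cd2ap between PS/E2H and PS/E3H was -0.45 ± 0.152 (edgeR adjusted p = 0.403), and its mice overlapped. Ordered by group mean, the 3 PS19 groups stood above the 3 parental groups for Inpp5d, Plcg2, Abi3, Spi1 and Rin3. These are the members called higher in the pooled comparison, and the share of all genes with such an order was not computed. Neighbouring groups overlapped in 4, 3, 5, 3 and 5 of the 5 steps for these genes. The one gap in the order for Inpp5d lay between PS/E2H and E4H, that is, between PS19 and parental mice.

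**Figure D3:**
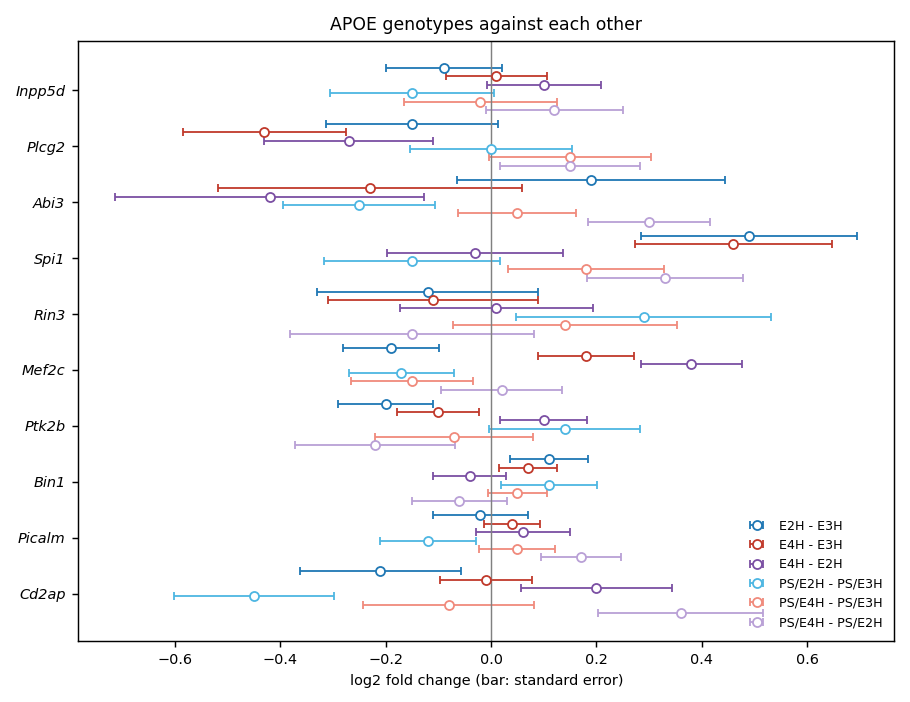
Log2 fold change of each gene (x axis) between APOE genotypes, 3 comparisons of parental mice and 3 of PS19 mice, with its standard error as the bar. All points are open because 0 of the 10 genes were called in each of the 6 comparisons.

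Related genes of each member were looked at next. Of all genes tested in the pooled comparison, 11.4% were called higher and 9.63% lower. Of 15 paralogs, genes of the same families, 3 rose, 3 fell and 9 did not pass in the pooled comparison, with a median log2 fold change of -0.06. Those that rose were Rin2, an exchange factor of the RIN family, at 0.79 ± 0.0820 (SE, edgeR adjusted p = 3.70e-07), from 28.1 ± 3.41 to 48.4 ± 7 CPM (SD, n = 9 parental and 12 PS19 mice), Bin2, a BIN protein of blood cells, at 0.38 ± 0.115 (edgeR adjusted p = 0.0200), and Inppl1, which encodes SHIP2, at 0.21 ± 0.0491 (edgeR adjusted p = 0.00364). Rin2 was thus in the same direction as Rin3, while Rin1, the neuronal member, was at -0.22 ± 0.102 (edgeR adjusted p = 0.146). The genes that fell were Abi2, at -0.30 ± 0.0447 (edgeR adjusted p = 3.79e-05), Mef2d, at -0.18 ± 0.0481 (edgeR adjusted p = 0.00840), and Snap91, which encodes the neuronal relative of PICALM, at -0.17 ± 0.0392 (edgeR adjusted p = 0.00314). Abi2 went from 194 ± 13.3 to 157 ± 12.7 CPM, in the opposite direction to Abi3. Of the rest, Plcg1 was at -0.09, Abi1 at -0.04, Amph at -0.10, Sh3kbp1 at -0.03, Ptk2 at -0.10 and Mef2a at -0.06 on the log2 scale. The 2 scarce paralogs Spib and Mef2b averaged under 1 CPM, with log2 fold changes of 0.68 ± 1.08 and 1.12 ± 0.525.

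Genes of immunoreceptor and phosphoinositide signaling, in which Plcg2 and Inpp5d act, rose in 14 of 24 cases and fell in 0, with a median of 0.55. Tyrobp, which encodes the adaptor DAP12, rose from 13.3 ± 2.76 to 39.2 ± 9.27 CPM (log2 fold change 1.57 ± 0.146, SE, edgeR adjusted p = 1.03e-07). Ptpn6, which encodes the inhibitory phosphatase SHP-1, rose by 1.39 ± 0.139 (edgeR adjusted p = 2.50e-07). Activating and restraining genes of the pathway were thus both among those that rose. Of 12 myeloid transcription factors, the company of Spi1, 9 rose and 0 fell, with a median of 0.74. Cebpa rose from 9.14 ± 1.15 to 18.3 ± 2.74 CPM (SD, edgeR adjusted p = 7.41e-08).

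The WAVE actin complex, to which the ABI family belongs, went both ways, with 4 of 10 genes higher, 3 lower and a median of -0.03. Nckap1l, the subunit of blood cells, rose from 13.7 ± 1.65 to 27.5 ± 5.09 CPM (SD, edgeR adjusted p = 3.25e-07) and the GTPase Rac2 by 1.28 ± 0.163 on the log2 scale (SE, edgeR adjusted p = 6.10e-06). Wasf1 fell by 0.46 (SE 0.0612, edgeR adjusted p = 9.27e-06) and Nckap1, the broadly expressed counterpart of Nckap1l, fell by 0.14 (SE 0.0391, edgeR adjusted p = 0.0112).

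Of 30 genes of clathrin endocytosis, 4 rose and 3 fell, with a median of 0.01, shares near the 11.4% and 9.63% of all genes. Dnm2, the ubiquitous dynamin, rose by 0.33 ± 0.0502 (SE, edgeR adjusted p = 4.65e-05) and the adaptor Dab2 by 0.44 ± 0.0909 (edgeR adjusted p = 0.00118). Fcho1, which initiates coated pits, fell by 0.41 (SE 0.0848, edgeR adjusted p = 0.00113) and Epn2 by 0.14 (SE 0.0324, edgeR adjusted p = 0.00315). Of 29 other genes linked to Alzheimer's disease risk, 10 rose and 3 fell, with a median of 0.10. Grn, which encodes progranulin, rose from 57.4 ± 3.94 to 113 ± 16.0 CPM (SD), or 0.98 ± 0.0721 on the log2 scale (SE, edgeR adjusted p = 4.08e-09). Trem2, the microglial lipid receptor, rose by 1.53 ± 0.128 (edgeR adjusted p = 2.44e-08). Celf1 fell by 0.17 (SE 0.0515, edgeR adjusted p = 0.0228) and Il34, a ligand of the receptor CSF1R, fell by 0.19 (SE 0.0648, edgeR adjusted p = 0.0391).

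**Figure D4:**
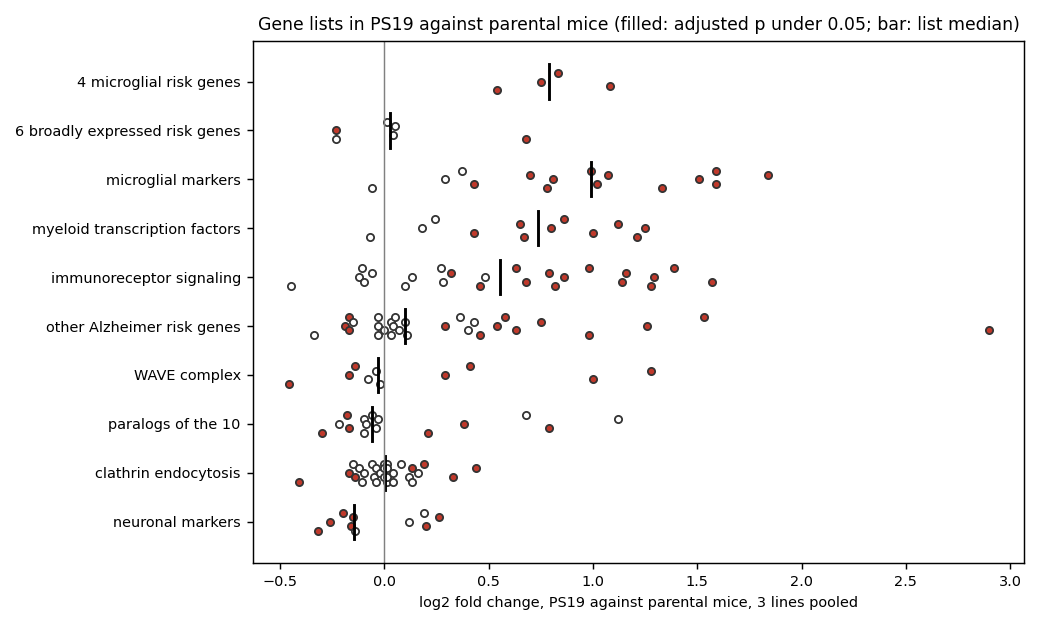
Log2 fold change in PS19 against parental mice, 3 APOE lines pooled (x axis), for the genes of each list (rows, 1 point a gene). Filled points are called at an adjusted p under 0.05 and bars mark the list median, which is 0.79 for the microglial risk genes, 0.99 for microglial markers, 0.02 for the broadly expressed risk genes and 0.01 for clathrin endocytosis.

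Microglial markers moved with the microglial members. Of 15 markers, 12 rose and 0 fell in the pooled comparison, with a median log2 fold change of 0.99, and the medians in the APOE2, APOE3 and APOE4 lines were 0.77, 0.80 and 1.26. Their summed level was 623 to 858 CPM in parental and 1062 to 1991 CPM in PS19 mice. The homeostatic marker P2ry12 did not follow, at -0.06 ± 0.107 (SE, edgeR adjusted p = 0.768). It does not stand for homeostatic markers as a class, since others of the list had higher means in PS19 than in parental mice. Cx3cr1 was at 77.2 against 47.3 CPM, Fcrls at 56.7 against 22.5 CPM and Tmem119 at 31.3 against 23.3 CPM. P2ry13 was at 18.2 against 13.9 CPM and Siglech at 16.8 against 13.7 CPM. Set against the mean log2 level of the 15 markers, Inpp5d changed by 0.13, -0.05 and -0.44 in the APOE2, APOE3 and APOE4 lines, Plcg2 by 0.00, -0.40 and -0.18, Abi3 by -0.48, -0.25 and -0.30, Spi1 by 0.08, 0.50 and -0.15, and Rin3 by 0.17, -0.44 and -0.56. On this scale Abi3 overlapped between PS19 and parental mice in each of the 3 lines, with an SD of up to 0.66 among parental mice. Inpp5d lay between -1.25 and -1.07 in E4H and between -1.66 and -1.53 in PS/E4H. Rin3 lay between -3.77 and -3.55 in E4H and between -4.50 and -4.03 in PS/E4H. In the APOE3 line Plcg2 was lower, at -3.04 to -2.81 in PS/E3H against -2.74 to -2.33 in E3H, and Spi1 was higher, at -3.40 to -3.07 against -4.04 to -3.61. None of these differences on the relative scale was tested, and the share of all genes that separate on it was not computed. The markers that set the scale also diverged from each other. Mean C1qa went from 45.6 CPM in parental to 164 CPM in PS19 mice, and mean P2ry12 from 38.6 to 37.2 CPM. The part of microglial number or state in the members' values was not tested.

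Markers of some other cell types moved too. Border macrophage markers, which share Spi1 dependence with microglia, rose in 3 of 4 cases, with sums of 4.38 to 9.56 CPM in parental and 11.8 to 21.4 CPM in PS19 mice. Monocyte and neutrophil markers rose in 1 of 5 cases (0.871 to 8.58 CPM and 1.03 to 25.4 CPM), and T and B cell markers in 0 of 8 (8.04 to 11.5 CPM and 6.69 to 13.2 CPM, with Cd3d and Ms4a1 at a median of 3 counts or fewer). Astrocyte markers rose in 8 of 8 cases (3730 to 4221 CPM and 5292 to 7314 CPM) and oligodendrocyte markers in 5 of 8 (4873 to 7073 CPM and 6137 to 9274 CPM). Precursors of oligodendrocytes rose in 1 of 3 (68.0 to 92.8 CPM and 79.2 to 106 CPM). Endothelial markers rose in 2 of 6 (124 to 162 CPM and 120 to 175 CPM) and choroid plexus markers in 1 of 4 (429 to 739 CPM and 398 to 1167 CPM). The oligodendrocyte, precursor, endothelial and choroid plexus sums overlapped between parental and PS19 mice. Of all genes tested, 11.4% were called higher and 9.63% lower. Beside Mef2c and Ptk2b, neuronal markers had 5 of 10 lower and 2 higher, with a median of -0.15 and sums of 7937 to 8879 CPM in parental and 6718 to 8720 CPM in PS19 mice. On the log2 scale those called lower were Camk2a at -0.32, Slc17a7 at -0.26, Snap25 at -0.20, Syt1 at -0.16 and Stmn2 at -0.15, and those called higher were Gad2 at 0.26 and Gad1 at 0.20. Slc17a6 at 0.19, Slc32a1 at 0.12 and Rbfox3 at -0.14 did not pass. The part of these cell types in the members' values was not tested.

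Genes whose level followed the microglial members most closely over the 21 mice were found by the root mean square difference of centred log2 CPM, among the other genes tested. Nearest to Inpp5d were Axl at 0.120, Gusb at 0.126 and Csf1r at 0.127, against a median of 0.541 over all genes. Axl encodes a receptor for dying cells, Gusb a lysosomal glucuronidase and Csf1r the receptor on which microglia depend. Plcg2 had Tcn2 at 0.149, Gsn at 0.165 and Hexa at 0.169, against a median of 0.528. Spi1 had Cryzl2 and Lair1 at 0.198 and Hcls1 at 0.202, against a median of 0.678. The distances for Abi3 were longer, with Agpat2 at 0.219, Fcgrt at 0.240 and Mdk at 0.249 against a median of 0.542. The 21 mice share the split between PS19 and parental groups, which by itself brings genes that changed by a like amount close together.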

How the data were processed

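Forebrain RNA of 21 mice was sequenced as stranded poly(A) libraries. The authors trimmed reads with Cutadapt, aligned them with HISAT2 (GRCm38.p5 in the submitters' processing notes), assembled and quantified transcripts with StringTie and ballgown, and deposited whole-number counts per gene and FPKM values, fragments scaled to transcript length and library size. Tool versions, and how the counts were derived, are not given in the sources used here. The authors called genes with DESeq2 at a false discovery rate under 0.05 and a fold of at least 2.

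From the deposited counts, edgeR 4.0.16 (R 4.3.3) was fitted with TMM normalization, filterByExpr (minimum count 10, minimum total 15) and the quasi-likelihood F test, over all genes, with Benjamini-Hochberg adjustment, where the authors' test, DESeq2 1.42.0, served as an alternative. Each comparison of 2 groups used its own mice, the pooled comparison all 21 with APOE line as a term, and interactions the 4 groups of 2 lines. A standard error is the absolute log2 fold change divided by the square root of F, and 95% intervals use its t quantile. CPM are TMM-scaled. Symbols come from GENCODE M21, which names 55141 of 55401 genes, and promoters from RefSeq. Other alternatives were limma 3.58.1 on log2(FPKM + 1), other size factors, no filter, a replicate block, 1 fit of 6 groups, and leaving out each mouse. The fits were tested on simulated data. Figures used matplotlib 3.10.9.

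The members, gene lists and markers were chosen with earlier results of these data known. The text names all members and paralogs, from each pathway list the 2 called genes of lowest adjusted p among those higher, and among those lower, in the pooled comparison, and the 3 genes nearest each microglial member. One gene that this rule names is not reported here. All neuronal markers are named, and the microglial markers named singly were chosen after their values were seen. Depth was 59265459 to 75932183 counts per mouse, and 0 columns stayed unmapped. Replicates are separate mice. Replicate numbers were not used as pairs in the main fits. Correlations of deviations between same-numbered mice ran from -0.104 to 0.0718. In PS/E2H against E2H all 3 were positive, at 0.0207 to 0.0718, and each number correlated best with its own.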

Additional observations from a re-analysis of the deposited data

Results flagged for a closer look

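Abi3 in PS/E2H was flagged because mouse 2, at 17.6 CPM, stood far from the other 3 mice of its group, which lay between 13 and 13.7 CPM. It was the 1 value flagged among 30 sets of 4 mice (10 genes in 3 PS19 groups), where chance flags about 1 in 20. Without this mouse the log2 fold change of Abi3 in PS/E2H against E2H stayed below the threshold, as it did in all 7 fits that left out a mouse.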

How the results depend on the processing

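All 15 member values called in the comparisons kept their direction under every alternative run, while 39 of the 115 uncalled ones changed sign under at least 1. In the pooled comparison, Inpp5d, Plcg2, Abi3, Spi1 and Rin3 stayed called in all 21 fits without single mice and under the 5 other alternatives. The count of members called moved as follows, and the cause was not tested unless stated. DESeq2 gave 4 higher in PS/E2H against E2H (in place of 1), 3 higher (in place of 2) and 1 lower (in place of 0) in PS/E3H against E3H, 2 lower in PS/E4H against E4H and 2 lower in the pooled comparison (each in place of 1), and 1 higher in E4H against E2H (in place of 0). With no filter on low counts, which adds genes to the adjustment, there were 0 higher in the APOE2 line, 3 higher in the APOE4 line (in place of 5) and 0 lower there. limma on log2(FPKM + 1) gave 0 higher in the APOE2 line, 1 higher in the APOE3 line (in place of 2), 4 higher (in place of 5) and 0 lower in the APOE4 line and 2 lower pooled, and its pseudocount, which shrinks the fold of low genes, left 0 past the fold of 2 in the APOE3 and APOE4 lines and pooled. One fit of all 6 groups gave 4 higher in the APOE2 line.

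Without single mice, the members called higher numbered 0 to 1 in the APOE2 line, 1 to 3 in the APOE3 line and 3 to 5 in the APOE4 line, where 2 to 3 also passed the fold of 2, and those called lower 0 to 1 in the APOE3 and APOE4 lines and 0 to 2 pooled. In the same fits the genes called ranged from 31 to 142 in the APOE2 line, 113 to 2584 in the APOE3 line and 1189 to 3402 in the APOE4 line.

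Replicate numbers were not used as pairs in the main fits. With the replicate block, 3 members were higher and 0 lower in the APOE4 line and 0 lower pooled, and the genes called went from 155 to 240, 1141 to 595 and 3252 to 1274 in the 3 lines. In the APOE2 line, all 3 numbers correlated best with their own.

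The genes called were 155, 1141, 3252 and 4806 in the 3 lines and pooled, against 635, 2327, 4396 and 5492 with DESeq2, and 70, 554 and 2195 in the 3 lines with no filter. No limit of detection for APOE differences was computed.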
